A study of Mus musculus with 18 samples.

Results

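The genes described here are 9 components of cytosolic nucleic acid sensing, chosen by name: Ddx58, Ifih1, Dhx58, Mavs, Tmem173, Zbp1, Tbk1, Ikbke and Eif2ak2, out of 34989 genes in the data. The choice was made with earlier results of these data known. All 9 were found in the files and all 9 passed the filter on low counts in every comparison. They were followed in hearts of C57B/L6 mice, 12 weeks old by the labels and somewhat younger by the study's methods, that were flushed with the preservation solution HTK and kept in ice-cold HTK for 0, 4 or 8 h. Every heart, including those of the 0 h groups, was then perfused with warm Krebs buffer for 1 h before the left ventricle (LV) and right ventricle (RV) were frozen, so the 0 h libraries are perfused hearts without storage and not untouched tissue. The 18 RNA libraries are 3 replicates of each of the 6 combinations of ventricle and time, and no gene was altered and no drug was compared. Hearts perfused outside the body receive no new blood cells, and the tissue was taken whole, so that a change in the number of cells of a type and a change of RNA per cell cannot be told apart.

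Cells watch their cytosol for nucleic acids that do not belong there. RIG-I, encoded by Ddx58, and MDA5, encoded by Ifih1, are helicases that bind viral-type or mislocalized RNA, and LGP2, encoded by Dhx58, is a related helicase without signaling domains that tunes the other RNA sensors. Both RIG-I and MDA5 signal through MAVS on the outer mitochondrial membrane, whereas cytosolic DNA is detected by the enzyme cGAS, whose product activates STING (Tmem173) on the endoplasmic reticulum. MAVS and STING converge on the kinases TBK1 and IKK epsilon (Ikbke), which switch on interferon regulatory factors and thereby type I interferon. ZBP1 binds nucleic acid in the Z conformation and can start necroptosis through RIPK3, and PKR (Eif2ak2) binds double-stranded RNA and shuts down translation by phosphorylating eIF2alpha. Most sensors are themselves interferon-induced genes. In the heart, DNA and RNA that leave damaged mitochondria are known ligands of these pathways.

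In the GRCm38 assembly, Ddx58 lies at chr4:40203773-40239828 on the minus strand, Ifih1 at chr2:62595798-62646255 on the minus strand, Dhx58 at chr11:100694884-100704271 on the minus strand, and Zbp1 at chr2:173206612-173218923 on the minus strand. Mavs lies at chr2:131234063-131248025 on the plus strand, Tbk1 at chr10:121546455-121586787 on the minus strand, Ikbke at chr1:131254343-131279606 on the minus strand, and Eif2ak2 at chr17:78852564-78882573 on the minus strand. All 9 genes are annotated as protein-coding.

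All 6 promoters searched for these genes are printed, and 3 of the 6 hold the core of the interferon-stimulated response element (ISRE). This core is GAAA, any 2 bases and GAAA. The window ran from 250 bases before to 50 bases after the start site. Windows of the RefSeq promoter table (GRCm38.p6) were searched for 6 of the 9 genes: Ddx58, Ifih1, Mavs, Tbk1, Ikbke and Eif2ak2. Tmem173 was left out of the search by its chromosome, and no window was found for Dhx58 and Zbp1. On both strands, the ISRE core was found in Ddx58, Ifih1 and Eif2ak2 and in none of Mavs, Tbk1 and Ikbke. Of 32851 promoters of the same length, 3.44% held it. The sequences run 5′ to 3′ on the strand of the gene, with the ISRE core in capitals; that of Ddx58 is the reverse complement of the motif. Tbk1 and Ikbke, which were higher in every stored library, hold no match, and neither does Mavs.
Ddx58, chr4:40239776-40240075, minus strand: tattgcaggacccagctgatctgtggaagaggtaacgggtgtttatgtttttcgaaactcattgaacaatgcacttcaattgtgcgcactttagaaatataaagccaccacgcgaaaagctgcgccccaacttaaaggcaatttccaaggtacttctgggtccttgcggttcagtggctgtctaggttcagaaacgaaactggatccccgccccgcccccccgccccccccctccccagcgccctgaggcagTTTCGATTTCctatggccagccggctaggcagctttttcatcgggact
Ifih1, chr2:62646206-62646505, minus strand: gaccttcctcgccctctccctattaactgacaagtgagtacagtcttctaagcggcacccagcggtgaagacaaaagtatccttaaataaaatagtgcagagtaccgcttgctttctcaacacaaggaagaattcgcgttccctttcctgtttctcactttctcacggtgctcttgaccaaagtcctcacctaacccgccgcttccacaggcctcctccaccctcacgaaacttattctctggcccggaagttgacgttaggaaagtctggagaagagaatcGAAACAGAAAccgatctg
Eif2ak2, chr17:78882523-78882822, minus strand: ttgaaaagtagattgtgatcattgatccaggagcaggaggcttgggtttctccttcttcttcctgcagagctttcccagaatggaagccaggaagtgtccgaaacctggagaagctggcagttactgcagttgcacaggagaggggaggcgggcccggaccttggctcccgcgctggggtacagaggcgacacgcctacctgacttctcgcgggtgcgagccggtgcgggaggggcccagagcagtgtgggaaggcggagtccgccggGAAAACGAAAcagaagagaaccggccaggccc
Mavs, chr2:131233813-131234112, plus strand: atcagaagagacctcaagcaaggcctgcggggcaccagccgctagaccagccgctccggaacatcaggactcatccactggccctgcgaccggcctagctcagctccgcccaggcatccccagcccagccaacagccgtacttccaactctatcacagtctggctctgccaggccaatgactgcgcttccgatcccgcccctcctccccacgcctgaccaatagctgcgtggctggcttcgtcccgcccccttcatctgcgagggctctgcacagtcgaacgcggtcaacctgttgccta
Tbk1, chr10:121586745-121587044, minus strand: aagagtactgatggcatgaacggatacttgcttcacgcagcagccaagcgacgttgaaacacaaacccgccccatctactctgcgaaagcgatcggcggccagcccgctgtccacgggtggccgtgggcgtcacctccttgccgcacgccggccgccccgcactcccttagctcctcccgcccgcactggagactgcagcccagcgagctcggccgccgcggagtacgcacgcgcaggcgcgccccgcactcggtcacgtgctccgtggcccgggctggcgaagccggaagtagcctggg
Ikbke, chr1:131279514-131279813, minus strand: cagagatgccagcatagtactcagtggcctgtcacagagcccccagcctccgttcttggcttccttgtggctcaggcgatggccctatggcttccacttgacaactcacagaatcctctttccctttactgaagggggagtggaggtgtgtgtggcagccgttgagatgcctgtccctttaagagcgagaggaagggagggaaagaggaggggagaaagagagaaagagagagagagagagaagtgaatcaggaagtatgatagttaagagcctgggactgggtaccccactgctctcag
The ISRE core began 2 bases after the annotated start site in Ddx58, 18 bases after it in Eif2ak2 and 32 bases after it in Ifih1, counting the start site as 0. A second interferon motif, the gamma-activated site (TTC, any 3 bases and GAA), was present in Eif2ak2 alone among the 6, and in 8.3% of all promoters. The kappaB motif, present in 8.46% of all promoters, was in 0 of the 6. A match of letters is a description of the window and not of binding.

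Each library held between 22552581 and 46236771 estimated counts, of which 22.7 to 34.4% came from mitochondrial genes. Levels are given as CPM, the estimated count scaled to a common normalized library size, and as TPM, which also accounts for transcript length, where genes are compared with each other. A gene counted as called when it changed more than 1.5-fold with an adjusted p (Benjamini-Hochberg, over all genes) under 0.1. The ventricular cardiomyocyte markers Myh6, Myl2, Tnnt2, Tnni3, Actc1 and Ryr2 were high in all libraries, summing to 52029 to 63323 CPM in LV and 54829 to 62918 CPM in RV at 0 h. Replicate 3 of the 4 h and 8 h groups stood apart from replicates 1 and 2 in both ventricles, as given gene by gene below. Its libraries also had 1.47 to 2.44 CPM of the Y-linked gene Ddx3y, against 67.4 to 115 CPM in the other stored libraries. At 0 h it was replicate 2 that was low in Ddx3y, at 1.69 CPM in LV and 1.86 CPM in RV. The part of this difference in the results was not tested, and results are therefore also given without replicate 3 at 4 h and 8 h, a choice made after seeing the data.

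At 0 h Mavs and Tbk1, which are expressed in most cells, led the group, and the inducible sensors were low. In LV, Mavs stood at 24.4 ± 1.55 TPM and Tbk1 at 14.1 ± 1.77 TPM, followed by Ddx58 at 8.74 ± 0.821 TPM (mean ± SD, n = 3). The ranges of these 3 genes over libraries did not overlap. The place of Ddx58 rests on the sum of its transcripts, short non-coding ones included. Its main protein-coding transcript made up 36.3 to 46.9% of the sum, at 3.07, 3.8 and 3.69 TPM in replicates 1, 2 and 3. That of Eif2ak2 held 3.08, 4.56 and 4.57 TPM, so these 2 transcripts overlapped. Tmem173 (3.45 to 6.53 TPM), Eif2ak2 (3.55 to 5.47 TPM) and Ifih1 (3.89 to 5.49 TPM) came next and did not differ beyond their spread. Dhx58 (0.989 to 2.24 TPM), Ikbke (1.3 to 1.94 TPM) and Zbp1 (0.65 to 2.28 TPM) were lowest and overlapped as well. In RV, Mavs was again highest at 23 ± 4.85 TPM and Zbp1 lowest at 0.671 ± 0.133 TPM (n = 3).

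After 8 h of storage the means stood in another order, which rested in part on replicate 3. In RV, Ifih1 was highest at 55 ± 44.9 TPM, with Ddx58 at 54.6 ± 51.8 TPM, and Mavs had moved to the 8th place at 12.9 ± 6.72 TPM (n = 3). In LV, Ddx58 stood at 38.8 ± 35 TPM, Ifih1 at 36.3 ± 31.8 TPM, and Mavs at 16.1 ± 5.44 TPM (n = 3), again in the 8th place. Mavs overlapped 6 of the 7 genes above it in LV, all except Tmem173, and 3 of the 7 in RV, Dhx58, Zbp1 and Eif2ak2. By the mean of replicates 1 and 2 alone, Mavs was in the 2nd place in LV, at 19.3 TPM behind Tmem173 at 21.5 TPM, and in the 5th place in RV, at 16.5 TPM. The SD was 0.817 to 1.26 times the mean for Ddx58, Ifih1, Dhx58, Zbp1 and Eif2ak2, and 0.264 to 0.608 times the mean for Tmem173, Tbk1 and Ikbke. The ranges of the 7 genes above Mavs overlapped in each ventricle, but part of their order was the same within every library. Ddx58 was above Eif2ak2, and Eif2ak2 above Dhx58, in each 8 h library. In LV replicate 1 they stood at 18.7, 11.7 and 8.32 TPM. Other pairs, such as Ddx58 and Ifih1, changed order between libraries. These levels are sums over all transcripts of a gene, short non-coding ones included. The main protein-coding transcript of Ddx58 alone held 8.14, 9.04 and 34.6 TPM in LV and 10.3, 14.5 and 50.1 TPM in RV. That of Eif2ak2 held 9.09, 9.82 and 46.7 TPM in LV and 8.44, 16.5 and 68.2 TPM in RV. By this measure Ddx58 was above Eif2ak2 in RV replicate 1 only. Ikbke was last, also without replicate 3, at 5.04 ± 2.39 TPM in LV and 6.07 ± 2.58 TPM in RV.

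Of the 9 genes, 8 were higher in every stored library than in every 0 h library of the same ventricle, at 4 h and at 8 h alike, and Mavs was the exception each time. Over all 15093 genes in the model of 18 libraries, 12.8% separated upward in this way in LV at 4 h, 15.5% in LV at 8 h, 14.8% in RV at 4 h and 18.3% in RV at 8 h. The plot of levels by library shows the 8 rising genes, the course of Mavs, and the distance of replicate 3.

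**Figure D1:**
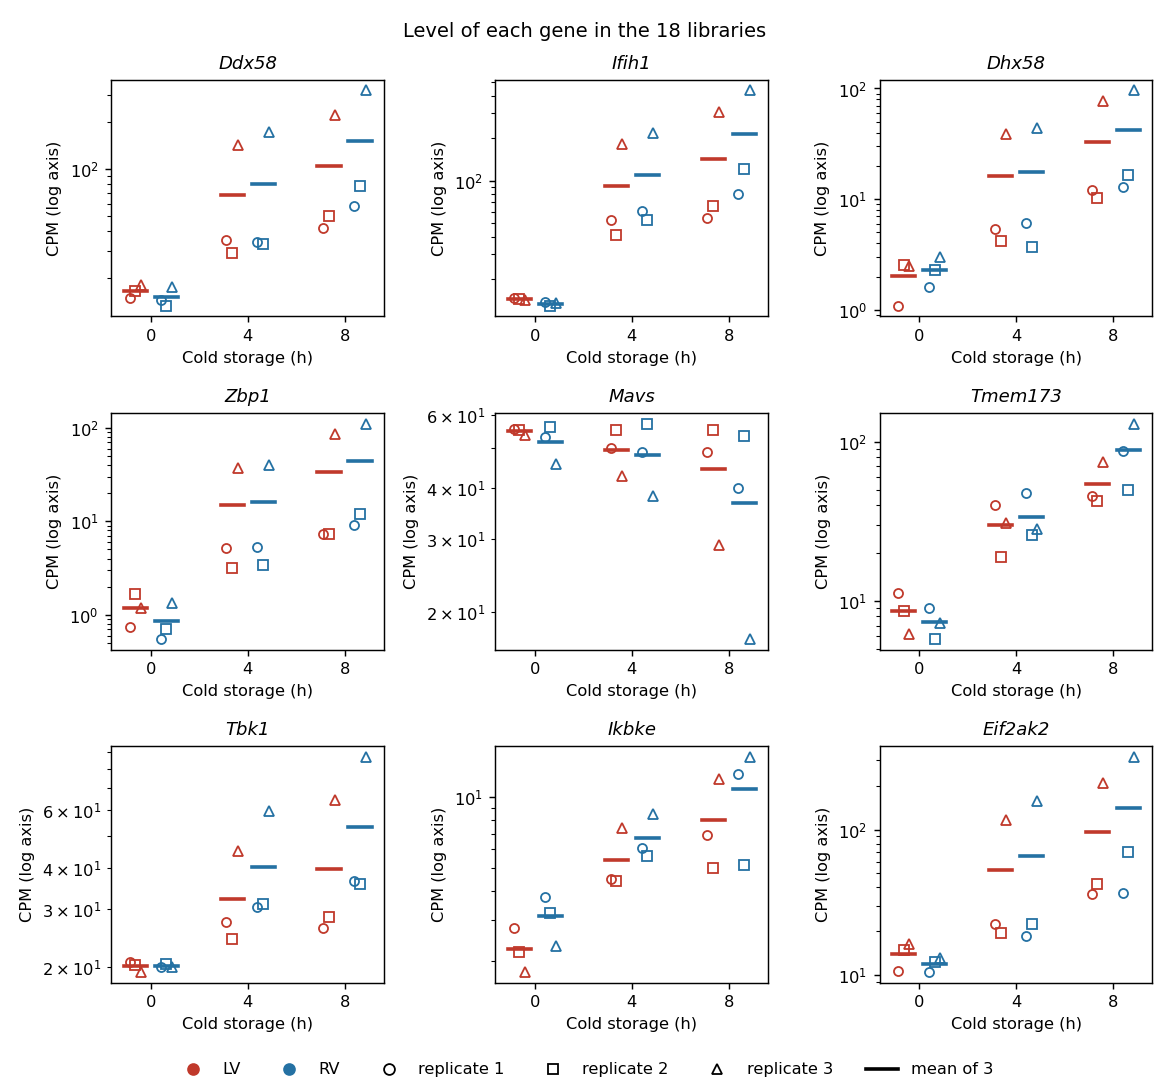
Level of each gene in CPM (log axis, scaled separately for each gene) against hours of cold storage, in LV (red) and RV (blue). Symbols are single libraries (circle, square and triangle for replicates 1, 2 and 3) and bars are means of 3; the triangles at 4 h and 8 h stand above the other symbols for Ddx58, Ifih1, Dhx58, Zbp1, Tbk1, Ikbke and Eif2ak2, below them for Mavs, and between or near them for Tmem173 at 4 h.

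The RNA helicase sensors were measured first. Ifih1, the MDA5 gene, was even across the 0 h libraries, at 14.7, 14.5 and 14.1 CPM in LV and 13.7, 12.9 and 13.4 CPM in RV (replicates 1, 2 and 3). Storage of 4 h gave 52.3, 40.7 and 181 CPM in LV and 60.5, 52.7 and 217 CPM in RV. Storage of 8 h gave 54.4, 66.3 and 309 CPM in LV and 80.4, 121 and 437 CPM in RV. The stored groups lay wholly above the 0 h groups, and replicate 3 was several times higher than replicates 1 and 2 at both times and in both ventricles. At 8 h the log2 fold change over 0 h was 3.32 ± 0.78 (SE) in LV (adjusted p = 0.053, edgeR quasi-likelihood test) and 4.04 ± 0.77 in RV (adjusted p = 0.0113). At 4 h Ifih1 was called in RV (3.07 ± 0.74, adjusted p = 0.0445), whereas in LV it reached 2.66 ± 0.76 with an adjusted p of 0.139. Leaving out replicate 3 at 4 h and 8 h gave a fold at 8 h of 4.15 in place of 9.98 in LV and 7.51 in place of 16.4 in RV, and Ifih1 was then called at both times in both ventricles (adjusted p at 4 h of 0.00207 in LV and 0.00137 in RV).

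Ddx58, the RIG-I gene, began at a similar level, with 15, 16.6 and 18 CPM in LV and 14.4, 13.3 and 17.5 CPM in RV at 0 h. At 8 h the 3 libraries held 42, 49.8 and 221 CPM in LV and 57.7, 77.6 and 319 CPM in RV. The lowest stored library was thus still above the highest 0 h library, and replicate 3 exceeded the mean of the others 4.82-fold in LV and 4.72-fold in RV. On the log2 scale, the fold change at 8 h was 2.66 ± 0.77 in LV (adjusted p = 0.0931) and 3.37 ± 0.84 in RV (adjusted p = 0.0303). At 4 h it was 2.05 ± 0.76 in LV (adjusted p = 0.237) and 2.44 ± 0.81 in RV (adjusted p = 0.113), and neither was called. In the fit without replicate 3 at 4 h and 8 h both were called, at 0.96 ± 0.14 in LV (adjusted p = 0.0111) and 1.17 ± 0.18 in RV (adjusted p = 0.00617), and the fold at 8 h was 2.76 in place of 6.33 in LV and 4.45 in place of 10.3 in RV.

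Dhx58, encoding the regulatory helicase LGP2, was scarce at 0 h, at 1.09, 2.53 and 2.49 CPM in LV and 1.61, 2.3 and 3 CPM in RV. After 8 h it was 12.2, 10.2 and 76.4 CPM in LV and 13, 16.4 and 95.9 CPM in RV. Replicates 1 and 2 averaged 5.5 times the 0 h mean in LV and 6.37 times in RV, and replicate 3 lay a further 6.82-fold and 6.53-fold above them. At 8 h, Dhx58 had a log2 fold change of 4.03 ± 1.12 in LV (adjusted p = 0.0815) and 4.23 ± 1.12 in RV (adjusted p = 0.0378). The error was wider than that of Ddx58 and Ifih1, and the genes were not tested against each other. When replicate 3 was left out at both storage times, Dhx58 was called at 4 h and 8 h in both ventricles, and its fold at 8 h was 5.56 in place of 16.4 in LV and 6.33 in place of 18.8 in RV. DESeq2 gave no p for Dhx58 in LV and called it in RV at 4 h and 8 h.

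Zbp1, the Z-nucleic acid sensor, had the largest fold change of the 9 in each ventricle. It was almost silent at 0 h, at 0.744, 1.65 and 1.18 CPM in LV and 0.555, 0.711 and 1.34 CPM in RV. After 4 h the level reached 5.13, 3.18 and 36.9 CPM in LV and 5.31, 3.38 and 39.9 CPM in RV. After 8 h the level reached 7.25, 7.36 and 86.3 CPM in LV and 9.13, 12 and 111 CPM in RV. Replicates 1 and 2 were similar in each ventricle at 8 h, and replicate 3 was 11.8-fold above their mean in LV and 10.6-fold in RV. Its log2 fold change at 8 h was 4.84 ± 1.33 in LV (adjusted p = 0.0803) and 5.72 ± 1.37 in RV (adjusted p = 0.0257). Without replicate 3 at 4 h and 8 h it was 2.63 ± 0.32 in LV (adjusted p = 0.00291) and 3.59 ± 0.36 in RV (adjusted p = 0.000441), smaller in size and with a smaller error. DESeq2 gave no p for Zbp1 in any comparison, so that its calls rest on edgeR, and the fitted log2 fold changes at 8 h were 4.86 in LV and 5.75 in RV.

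The adaptors Mavs and Tmem173 departed from each other. Mavs, the mitochondrial adaptor of RIG-I and MDA5, was 55.5, 55.3 and 53.8 CPM in LV and 53.1, 56.3 and 45.7 CPM in RV at 0 h. Storage of 8 h left 48.8, 55.2 and 29.1 CPM in LV and 39.9, 53.3 and 17.2 CPM in RV. Replicate 3 was the lowest stored library in each of the 4 groups, and the stored and 0 h groups overlapped throughout. The log2 fold change at 8 h was -0.30 ± 0.21 in LV (adjusted p = 0.407) and -0.49 ± 0.33 in RV (adjusted p = 0.322). In RV with the replicate number as a block, the value was -0.60 ± 0.23 with an adjusted p of 0.0977, which met the threshold for a lower call. In the same RV replicate 3 library the ventricular cardiomyocyte markers summed to 26451 CPM, the lowest of all libraries. The other RV libraries at 8 h held 44740 and 51623 CPM. Among these RV libraries, replicate 3 was lowest for Myh6, Tnnt2, Actc1 and Ryr2 but not for Tnni3 and Myl2. Myl2 was 3570, 4232 and 4292 CPM in replicates 1, 2 and 3. The part of this in the Mavs value was not tested.

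Tmem173, the STING gene, rose in both ventricles without replicate 3 standing apart at 4 h. It stood at 11.3, 8.64 and 6.19 CPM in LV and 8.97, 5.79 and 7.28 CPM in RV at 0 h. By 4 h this was 40.2, 18.8 and 31 CPM in LV and 47.3, 25.8 and 28.4 CPM in RV. By 8 h this was 45.7, 42.3 and 74.6 CPM in LV and 87.7, 50.1 and 130 CPM in RV. At 4 h replicate 1 and not replicate 3 was the highest, and at 8 h replicate 3 exceeded the mean of the others 1.7-fold in LV and 1.89-fold in RV, far less than for the helicases. Tmem173 was the only member called at both times in both ventricles, with log2 fold changes of 1.78 ± 0.34 in LV (adjusted p = 0.046) and 2.22 ± 0.38 in RV (adjusted p = 0.014) at 4 h. At 8 h these were 2.63 ± 0.35 in LV (adjusted p = 0.00898) and 3.62 ± 0.40 in RV (adjusted p = 0.00139). Tmem173 was also called in all 4 comparisons without replicate 3, at 2.31 ± 0.32 in LV and 3.21 ± 0.32 in RV at 8 h.

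Of the kinases, Tbk1, which is expressed in most cells, had the smallest fold change. It was 20.8, 20.3 and 19.4 CPM in LV and 20.1, 20.5 and 20.1 CPM in RV at 0 h. Storage of 8 h brought it to 26.4, 28.4 and 64.6 CPM in LV and 36.6, 35.8 and 87.2 CPM in RV. The groups did not overlap, and replicates 1 and 2 of each ventricle lay close together at 8 h. For Tbk1 the log2 fold change at 8 h was 0.98 ± 0.35 in LV (adjusted p = 0.144, not called) and 1.43 ± 0.40 in RV (adjusted p = 0.045, called). With replicate 3 of both storage times removed these values were 0.43 ± 0.11 (adjusted p = 0.0724, fold under 1.5) and 0.83 ± 0.12 (adjusted p = 0.0023, called).

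Ikbke, the inducible kinase related to Tbk1, was 2.77, 2.19 and 1.8 CPM in LV and 3.77, 3.22 and 2.32 CPM in RV at 0 h. After 8 h the libraries held 6.91, 4.98 and 12 CPM in LV and 12.5, 5.16 and 14.9 CPM in RV. Here replicates 1 and 3 were high in RV at 8 h and replicate 2 was low. The log2 fold change at 8 h was nearly equal in both ventricles, 1.81 ± 0.35 in LV (adjusted p = 0.0321) and 1.82 ± 0.38 in RV (adjusted p = 0.0157), and both calls were also made without replicate 3 (adjusted p of 0.0138 in LV and 0.0255 in RV).

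Eif2ak2, the PKR gene, was 10.7, 14.8 and 16.3 CPM in LV and 10.5, 12.3 and 13 CPM in RV at 0 h. The 4 h libraries held 22.5, 19.5 and 117 CPM in LV and 18.4, 22.4 and 158 CPM in RV. The 8 h libraries held 36.3, 42.1 and 211 CPM in LV and 36.6, 70.7 and 319 CPM in RV. Replicate 3 thus held most of the increase, and at 4 h replicates 1 and 2 averaged 1.5 times the 0 h mean in LV and 1.71 times in RV. The log2 fold change at 8 h was 2.80 ± 0.87 in LV (adjusted p = 0.108, not called) and 3.63 ± 1.02 in RV (adjusted p = 0.0468, called). Without replicate 3 at 4 h and 8 h, Eif2ak2 was called in LV at 8 h, at 1.48 ± 0.18 (adjusted p = 0.00246).

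**Figure D2:**
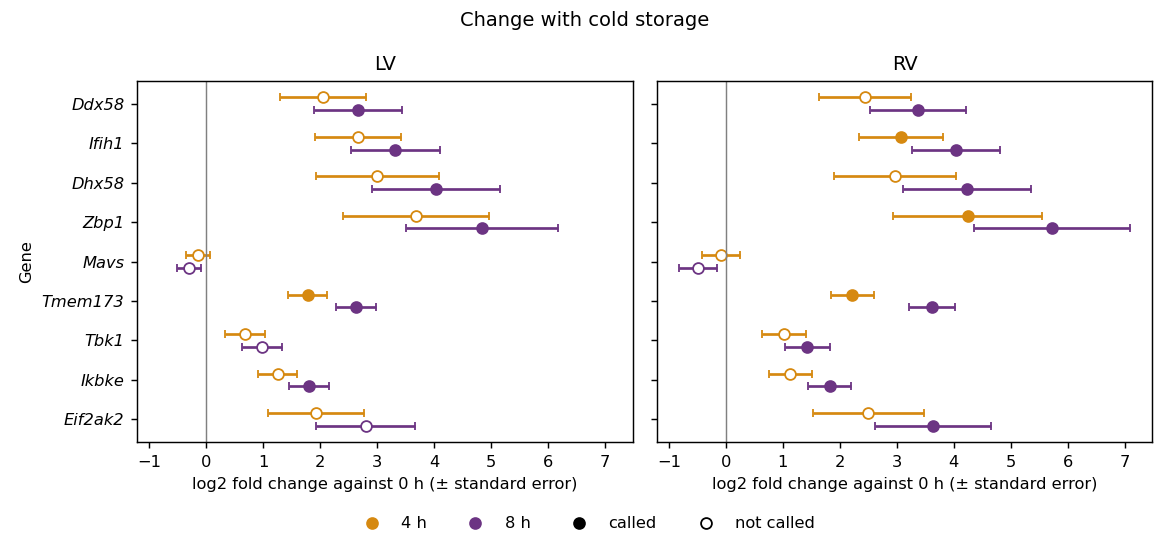
Log2 fold change against 0 h, with its standard error, of each gene after 4 h (orange) and 8 h (purple) of storage in LV (left) and RV (right). Filled points met the call threshold: 1 gene in LV at 4 h, 6 in LV at 8 h, 3 in RV at 4 h and 8 in RV at 8 h; Zbp1 lies farthest to the right, Mavs near 0, and the bars of Tmem173, Tbk1 and Ikbke are the shortest apart from those of Mavs.

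Counted over the 9 genes, storage of 4 h raised 1 in LV, Tmem173, where 2.4% of all 14564 genes tested were called higher. Storage of 8 h raised 6 in LV (Ddx58, Ifih1, Dhx58, Tmem173, Zbp1 and Ikbke), where 5.46% of all genes were called higher. The median log2 fold change of the 9 was 1.92 at 4 h and 2.66 at 8 h, against -0.00 and -0.02 over all genes. DESeq2 also called 6 at 8 h, of which 4 were shared, with Tbk1 and Eif2ak2 in place of Dhx58 and Zbp1, for which it gave no p. Of all genes, DESeq2 called 1496 higher or lower at 8 h, against 978 of 14564 by edgeR. The LV counts depended on single libraries. At 4 h the count was 0 without 0 h replicate 2, without 0 h replicate 3, without 4 h replicate 1 and without 4 h replicate 3, and it was 5 without 8 h replicate 3. At 8 h it was 2 without 0 h replicate 1, 1 without 0 h replicate 2, 1 without 0 h replicate 3 and 2 without 8 h replicate 3. With replicate 3 of both storage times left out together, 6 genes were called higher at 4 h (4.5% of all genes) and 7 at 8 h (4.74% of all genes).

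In RV, storage of 4 h raised 3 of the 9 (Ifih1, Tmem173 and Zbp1), where 6.17% of all 14622 genes tested were called higher. Storage of 8 h raised 8 of the 9, all except Mavs, where 13% of all genes were called higher. The median log2 fold change of the 9 was 2.44 at 4 h and 3.62 at 8 h, against 0.00 and -0.07 over all genes. At 8 h DESeq2 called 7 of these 8, all except Zbp1. Of all genes, DESeq2 called 3032 higher or lower at 8 h, against 2665 of 14622 by edgeR. With the replicate number as a block, 7 were called higher at 4 h (8.45% of all genes), Tbk1, Ikbke, Ddx58 and Dhx58 being added, and at 8 h Mavs was called lower (8.81% of all genes) beside the 8 called higher (15.5% of all genes). At 4 h the count was 1 without 0 h replicate 2, without 0 h replicate 3 and without 4 h replicate 3, and 8 without 8 h replicate 3. At 8 h it was 5 without 0 h replicate 1, 3 without 0 h replicate 2, 4 without 0 h replicate 3 and 5 without 8 h replicate 3. With replicate 3 of both storage times left out together, 7 were called higher at 4 h (8.1% of all genes) and 8 at 8 h (10.9% of all genes).

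Between 4 h and 8 h of storage, 0 of the 9 genes were called by edgeR in either ventricle, and 0 of all genes tested (0%). At an unadjusted p under 0.05 there was 1 member in each ventricle, Tmem173, which was 0.85 ± 0.33 higher on the log2 scale at 8 h in LV (adjusted p = 0.594) and 1.41 ± 0.37 higher in RV (adjusted p = 0.599). DESeq2 called 0 members in LV (0.488% of all genes) and 1 in RV, Tmem173 (0.294% of all genes). The fitted changes from 4 h to 8 h were above 0 for 8 of the 9 in both ventricles.

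The excess of replicate 3 differed widely among the members, as the plot of replicate 3 against the other libraries shows. At 8 h it was largest for Zbp1 and Dhx58, intermediate for Ifih1, Ddx58 and Eif2ak2 (4.34-fold to 5.94-fold over both ventricles), small for Tbk1 (2.36-fold and 2.41-fold), Ikbke (2.02-fold and 1.68-fold) and Tmem173, and turned downward for Mavs (0.559-fold in LV and 0.368-fold in RV). Replicate 3 was the highest of the 3 libraries for 8 of the 9 members in each ventricle after 8 h, against 35.5% of all genes in LV and 34.8% in RV. At 0 h no such gap was present, and the highest library exceeded the lowest by at most 2.41-fold for any member.

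**Figure D3:**
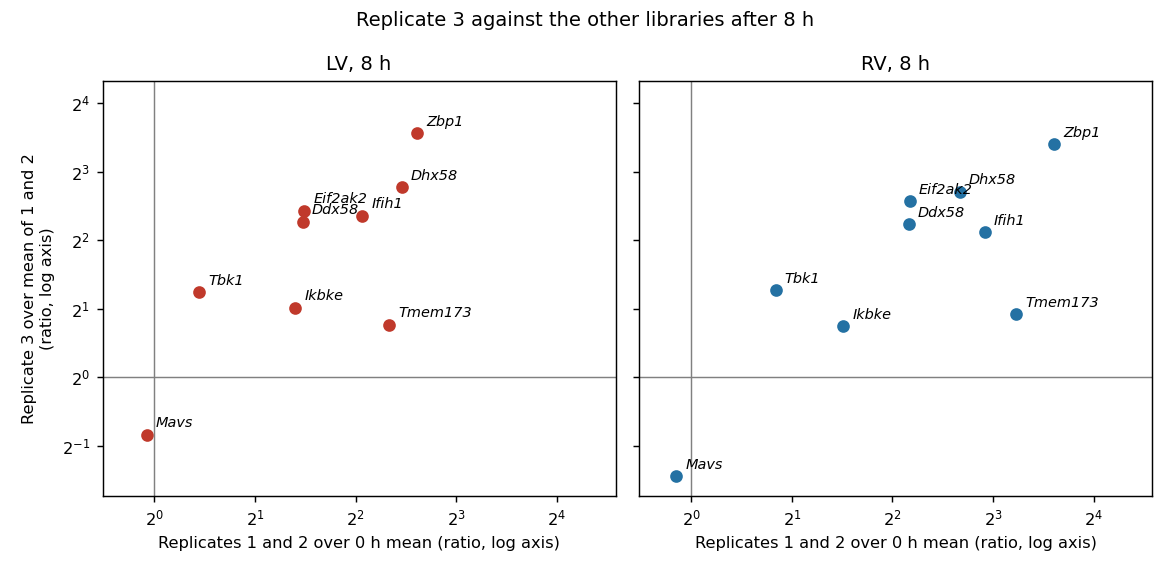
Ratio of replicate 3 to the mean of replicates 1 and 2 at 8 h (vertical, log axis) against the ratio of replicates 1 and 2 to the 0 h mean (horizontal, log axis), with 1 point for each gene in LV (left) and RV (right). Grey lines mark a ratio of 1; Zbp1 is at the top, at 11.8 in LV and 10.6 in RV, Tmem173 has a large storage ratio and a low replicate 3 ratio, and Mavs lies below 1 on both axes.

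The members moved together over the 18 libraries, with the exception of Mavs. Pearson correlations of log2 CPM among the 8 other genes ranged from 0.75 to 0.99 over 28 pairs, with a median of 0.95, and those of Mavs with the 8 ranged from -0.85 to -0.62. These are descriptions: the 18 points share the storage groups and the replicate 3 libraries. The genes most like each member over the same 18 libraries were Stat2 (0.997) and Isg20 (0.995) for Ddx58, Ifi204 and Isg15 (both 0.995) for Ifih1, and Gbp3 and Phf11d (both 0.993) for Dhx58. For Zbp1 they were Ifi206 (0.997) and Oas1a (0.996), and for Eif2ak2 Herc6 (0.998) and Parp9 (0.997). Stat2, Isg15, Isg20, Oas1a and Herc6 are interferon-induced genes. For Tmem173 they were Ikzf4 (0.994) and Irf8 (0.992), for Tbk1 Saa3 (0.988) and Fmr1 (0.987), for Ikbke Chil1 (0.971) and Slamf8 (0.958), and for Mavs Gpd1l (0.984) and Zbtb18 (0.983). Ifi204, Ifi206 and Oas1a belong to families of near-identical copies, between which the estimated counts may be split uncertainly.

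Between the ventricles, 0 of the 9 genes were called at 0 h, 4 h or 8 h by edgeR when the libraries were treated as independent, and 0 members had an unadjusted p under 0.05 at any of these times. DESeq2 called 0 at each time, where 0.404%, 0.159% and 1.17% of all genes were called. By edgeR, of all 15093 genes, 0.159% were called at 0 h, 0.0133% at 4 h and 0.0331% at 8 h. At 8 h replicate 3 was high in both ventricles for most members, and same-numbered LV and RV libraries of a storage time deviated together in all 9 pairs, and were therefore also compared as pairs.

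Within pairs, 8 of the 9 genes were lower in LV than in RV at 8 h in all 3 pairs, and Mavs was higher in LV in all 3. Over all genes, 24.1% were lower in LV in all 3 pairs at 8 h and 24.6% higher. For Ifih1 the log2 ratio of LV to RV was -0.56, -0.87 and -0.50 in replicates 1, 2 and 3. For Ddx58 it was -0.46, -0.64 and -0.53, the tightest of the sensor genes. For Tmem173 it was -0.94, -0.25 and -0.80, so that replicate 2 contributed least.

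With the pairs as a block, LV was called lower than RV at 8 h for 2 of the 9 genes, where 6.53% of all genes were called lower: Ifih1 at -0.64 ± 0.08 (adjusted p = 0.000523) and Tmem173 at -0.67 ± 0.15 (adjusted p = 0.00893). The other 7 also had an adjusted p under 0.1 but a fold change under 1.5, from -0.54 ± 0.08 for Ddx58 (adjusted p = 0.00112) to 0.35 ± 0.11 for Mavs (adjusted p = 0.042). Without both 8 h replicate 2 libraries, 1 of the 9 was called with the block. At 0 h and 4 h, 0 of the 9 were called with the block (1.85% and 1.93% of all genes). At 0 h the pairs had leaned the other way for 3 of the genes, with LV above RV in all 3 pairs for Ddx58, Ifih1 and Eif2ak2 (20.7% of all genes), and Ikbke was lower in LV in all 3 pairs at every time.

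**Figure D4:**
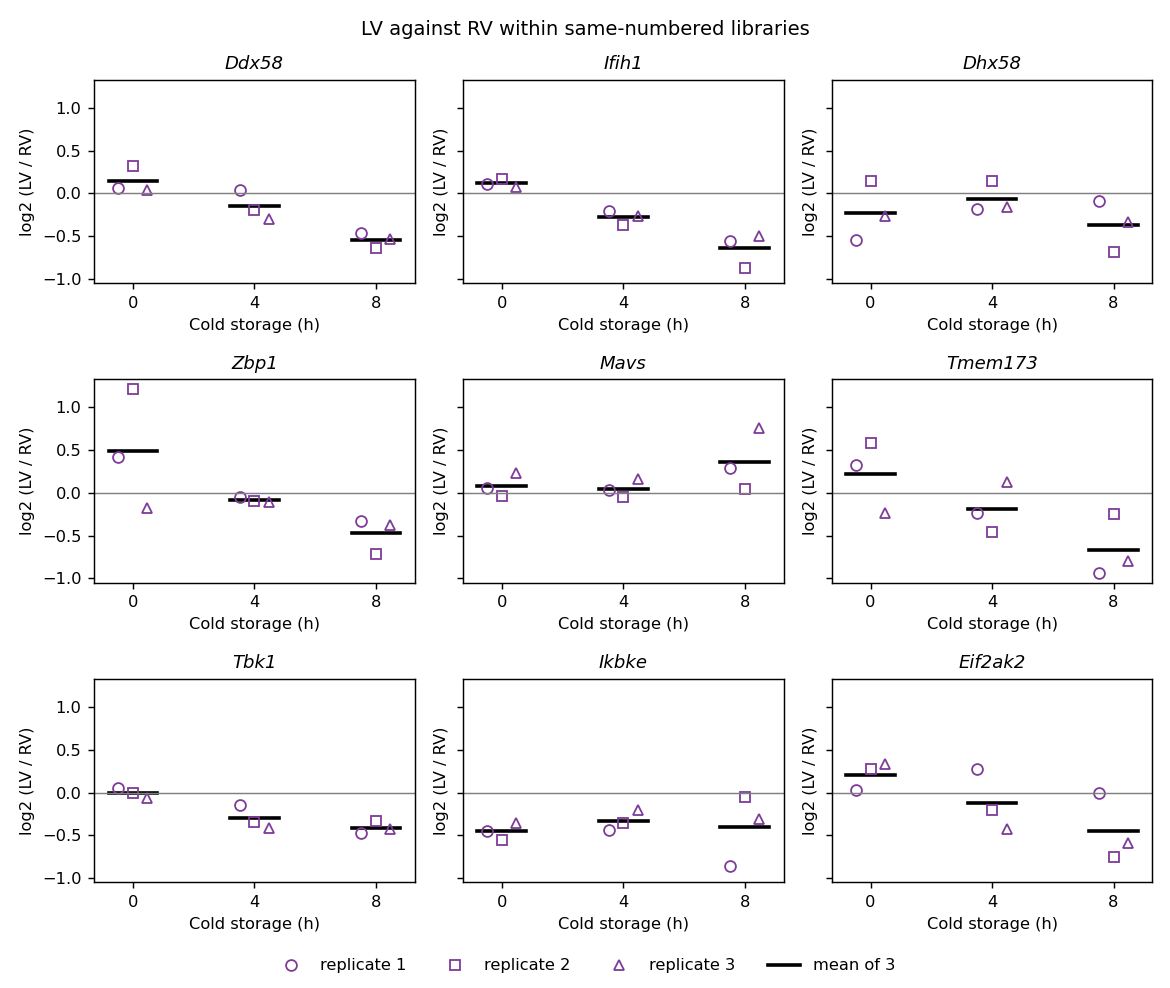
Log2 ratio of LV to RV within same-numbered libraries at 0, 4 and 8 h of storage, with 1 panel for each gene. Symbols are replicates 1, 2 and 3, bars are means of 3, and the grey line marks equal levels; at 8 h the symbols lie below the line for 8 genes, with Eif2ak2 of replicate 1 almost on it at -0.01, and above it for Mavs.

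The change from 0 h to 8 h was also compared between the ventricles directly. Without the block, 0 of the 9 differed (0% of all genes by edgeR, 0 members at an unadjusted p under 0.05 and 0 by DESeq2, which called 0.0133% of all genes). With the block, the rise in LV was smaller for 5 genes, where 4.72% of all genes were called in that direction. These were Ddx58 at -0.68 ± 0.12, Ifih1 at -0.75 ± 0.12, Tmem173 at -0.90 ± 0.23, Zbp1 at -0.90 ± 0.26 and Eif2ak2 at -0.67 ± 0.21, as LV minus RV on the log2 scale. Tbk1 had a difference of -0.41 ± 0.10 (adjusted p = 0.0304) with a fold under 1.5. Dhx58 differed by -0.15 ± 0.21 (adjusted p = 0.711) and Ikbke by 0.02 ± 0.20 (adjusted p = 0.96). Leaving out both same-numbered libraries of a storage time in turn, the count of 5 was between 2 and 5, with 2 without 0 h replicate 1, 2 without 0 h replicate 2 and 3 without 8 h replicate 1. For the change at 4 h, 0 of the 9 differed with the block (0.305% of all genes) or without it (0%).

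The other genes of these pathways were taken from 7 lists with 111 genes, of which 110 were found and 107 tested. Their median log2 fold change at 8 h was 0.18 in LV and 0.35 in RV, well under the medians of the 9 members. In LV 4 of the 107 rose after 4 h (3.74%, against 2.4% of all genes) and 15 after 8 h (14%, against 5.46%), and 0 fell (0.398% and 1.26% of all genes). In RV 20 rose after 4 h of storage (18.7%, against 6.17%) and 30 after 8 h (28%, against 13%). Those that fell in RV were 1 at 4 h (0.935%, against 3.91%) and 3 at 8 h (2.8%, against 5.26%). None of these shares was tested against that of all genes or between lists. These counts also moved with single libraries. For LV at 4 h, 0 were called without 0 h replicate 2, 0 h replicate 3, 4 h replicate 1 or 4 h replicate 3, 2 without 8 h replicate 2 and 11 without 8 h replicate 3. For LV at 8 h, 7, 0 and 1 were called without 0 h replicate 1, 2 or 3, 9 without 4 h replicate 1, 24 without 8 h replicate 2 and 4 without 8 h replicate 3. For RV at 4 h, 2 were called without 0 h replicate 2 or 3, 12 without 4 h replicate 1 and 13 without 4 h replicate 3. For RV at 8 h, 20 were called without 0 h replicate 2, 19 without 0 h replicate 3 and 20 without 8 h replicate 3.

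Of the 31 cofactors and regulators of RIG-I and MDA5, 6 rose in LV (19.4%) and 9 rose (29%) and 1 fell in RV at 8 h. Oasl1, an interferon-induced protein of the OAS family, rose most, from 4.98, 4.29 and 3.95 CPM to 51.2, 53.1 and 315 CPM in LV and from 5.29, 3.52 and 2.48 CPM to 75.6, 115 and 492 CPM in RV. Its log2 fold change was 4.99 ± 1.04 in LV (adjusted p = 0.0395) and 5.96 ± 1.06 in RV (adjusted p = 0.00853). Trim25, the ubiquitin ligase that acts with RIG-I, rose by 2.28 ± 0.53 in LV (adjusted p = 0.0514) and by 2.89 ± 0.53 in RV (adjusted p = 0.00954). Zc3hav1, which encodes the antiviral protein ZAP, rose by 2.14 ± 0.52 in LV and 2.92 ± 0.49 in RV. Nlrc5 rose in RV by 4.78 ± 1.41 (adjusted p = 0.054), and in both ventricles replicate 3 held most of it, at 365 CPM in RV against 23.9 and 31.5 CPM in replicates 1 and 2. Trim65, a ubiquitin ligase of MDA5, was the gene that fell in RV, by 0.74 ± 0.19 on the log2 scale (adjusted p = 0.033).

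Of 28 tested genes of DNA sensing and STING partners, 3 had risen after 8 h in LV (10.7%) and 6 in RV (21.4%), while the median of the list was 0.02 in LV and -0.07 in RV. The risers included the DNA sensor itself. Cgas was 1.76, 1.82 and 1.77 CPM in LV and 1.32, 1.08 and 1.27 CPM in RV at 0 h, and at 8 h 8.63, 11 and 31.8 CPM in LV and 12.7, 16 and 56 CPM in RV. Its log2 fold change was 3.26 ± 0.67 in LV (adjusted p = 0.0377) and 4.56 ± 0.80 in RV (adjusted p = 0.00815). Trex1, the exonuclease that degrades cytosolic DNA, rose by 2.51 ± 0.56 in LV (adjusted p = 0.0471) and 3.17 ± 0.48 in RV (adjusted p = 0.00459). Ifi204, a DNA-binding protein of the IFI200 family, rose by 3.88 ± 0.92 in LV and 4.52 ± 0.85 in RV. Cgas, Trex1 and Ifi204 were named for being among the largest called increases of the list, so their calls were fixed by that choice. Tmem173, chosen by name but with earlier results of these data known, also met the threshold at 8 h in both ventricles.

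Of the 9 genes of the ZBP1 death complex, 2 rose in LV (22.2%), and 5 rose (55.6%) and 2 fell (22.2%) in RV at 8 h. Ripk1 rose by 1.33 ± 0.34 in LV (adjusted p = 0.0658) and 2.37 ± 0.31 in RV (adjusted p = 0.00279), and Cflar, which restrains caspase-8, by 1.63 ± 0.43 in LV (adjusted p = 0.0749) and 2.14 ± 0.41 in RV (adjusted p = 0.0108). Mlkl, the executioner of necroptosis, rose in RV by 3.62 ± 1.05 (adjusted p = 0.0522), from 2.81, 2.95 and 3.62 CPM to 12.1, 13.8 and 85.7 CPM. Adar, whose product edits double-stranded RNA and restrains MDA5, PKR and ZBP1, rose in RV by 2.41 ± 0.76 (adjusted p = 0.067). The 2 that fell in RV were Tradd, by 0.68 ± 0.22 (adjusted p = 0.0794), and Casp6, by 0.65 ± 0.22 (adjusted p = 0.0865).

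Genes around PKR and partners of the kinases were counted next. Of 13 genes around PKR, double-stranded RNA and eIF2alpha, 0 were called in LV and 2 rose in RV at 8 h, Ppp1r15a (1.80 ± 0.43, adjusted p = 0.0249) and Ppp1r15b (1.14 ± 0.22, adjusted p = 0.0122), both regulatory subunits of the eIF2alpha phosphatase. This share of 15.4% in RV was near the 13% of all genes. With the block, 0 of the 13 were called in LV as well. Of 15 tested partners of TBK1 and IKK epsilon, 2 rose in LV (13.3%) and 5 in RV (33.3%), led by Nfkb1 (1.69 ± 0.30 in LV, adjusted p = 0.023, and 2.35 ± 0.27 in RV, adjusted p = 0.00165). Rela rose in RV by 1.74 ± 0.30, and the scaffold Tank by 0.66 ± 0.17 in LV and 1.09 ± 0.17 in RV. Of 6 genes of endosomal sensing, Tlr7 rose in both ventricles, by 0.70 ± 0.20 in LV and 1.15 ± 0.17 in RV.

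The type I interferon genes in the lists, Ifnb1, Ifna4 and Ifna2, were sparse. Of the 7 genes in their list, which holds the kinases Jak1 and Tyk2 beside ligands and receptor chains, 5 passed the filter. At 8 h Ifnar2, a receptor chain, rose by 0.68 ± 0.19 in LV (adjusted p = 0.09) and 1.07 ± 0.23 in RV (adjusted p = 0.0169), and Jak1 in RV by 0.73 ± 0.23 (adjusted p = 0.0655). The ligand gene Ifnb1, singled out after its values were seen, was not called in either ventricle at 4 h or 8 h without the block. Its estimated counts were 67, 4 and 3 in LV at 0 h, 168, 100 and 32 at 4 h, and 60, 40 and 15 at 8 h. In RV they were 34, 5 and 1 at 0 h, 198, 58 and 5 at 4 h, and 81, 43 and 21 at 8 h. Replicate 3, which held the highest Zbp1, Dhx58, Ifih1, Ddx58 and Eif2ak2 in each stored group, held the lowest Ifnb1 in each of them. With the block, Ifnb1 in RV had an adjusted p of 0.0399 at 4 h and 0.026 at 8 h, with a higher level after storage. Ifna4 had 0 to 2 and Ifna2 0 to 1 estimated counts in any library.

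**Figure D5:**
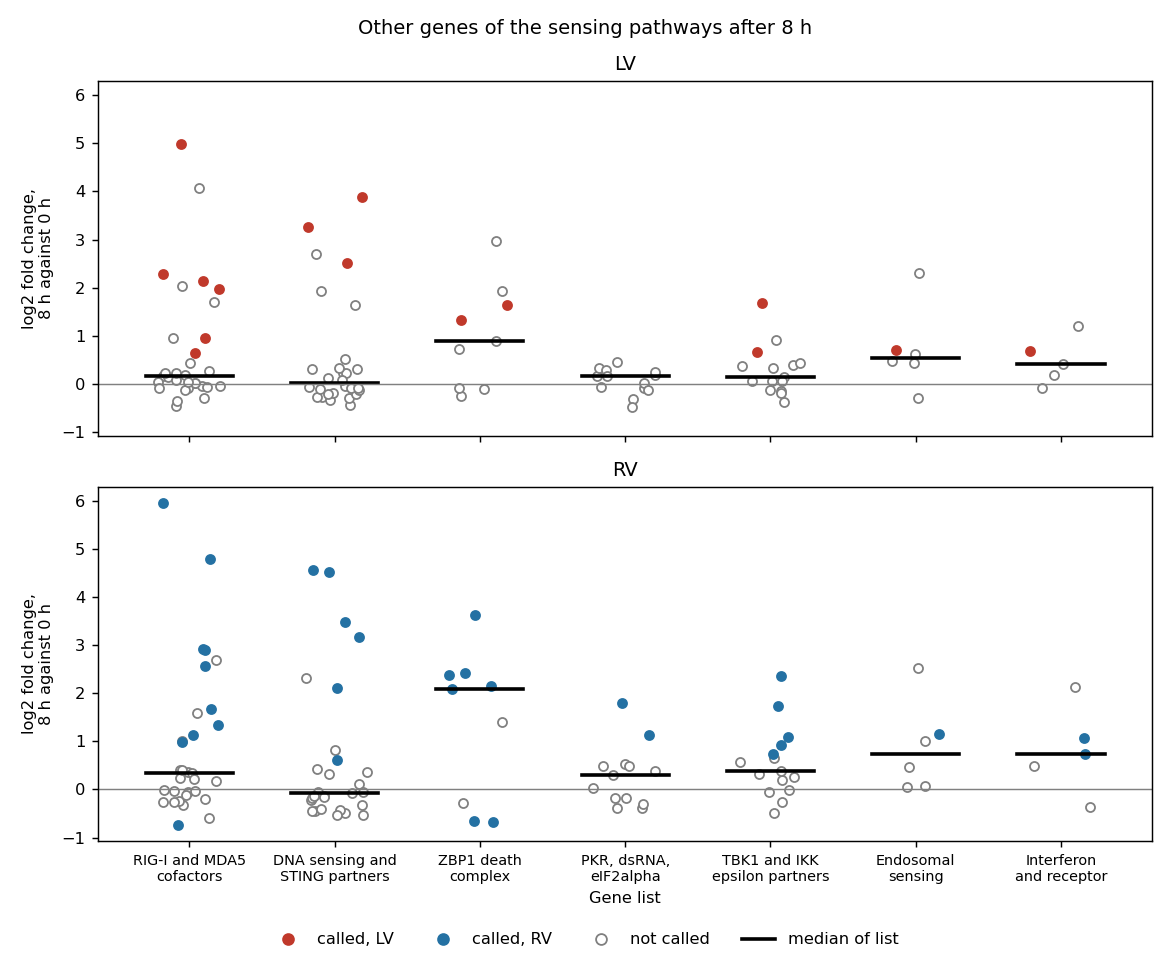
Change with 8 h of storage (log2 fold change over 0 h) of the 107 other tested genes, grouped by list, in LV (top) and RV (bottom). Filled points met the call threshold (15 in LV and 33 in RV), open points did not, bars are list medians, and points are spread sideways only for legibility; most points lie near 0, with Oasl1 the highest in each ventricle.

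Some cell type markers also moved with storage, and their part in the results was not tested. The ventricular cardiomyocyte sum was 50941 to 58239 CPM at 4 h over both ventricles. At 8 h it was 38793 to 45536 CPM in LV and 26451 to 51623 CPM in RV. Each 8 h library lay below the 0 h libraries of its ventricle. Of the 6 genes, only Myh6 did so, and only in LV. It was 29966 to 38214 CPM there at 0 h and 19030 to 24078 CPM at 8 h. Myl2 in LV was 4262 to 4981 CPM at 0 h and 4254 to 5503 CPM at 8 h. The mitochondrial share of counts in LV was 24.1 to 28.3% at 0 h and 32 to 34.4% at 8 h. In RV this share was 22.7 to 32.6% at 0 h and 33.3 to 34.2% at 8 h. The sum of 4 erythroid markers was 1.76 to 4.49 CPM at 0 h over both ventricles, and at 8 h 8.34 to 135 CPM in LV and 2.62 to 33.5 CPM in RV, with replicate 1 the highest at 4 h and 8 h in both. The sum of 6 macrophage markers was 113 to 176 CPM in LV and 138 to 213 CPM in RV at 0 h, and 154 to 236 CPM and 180 to 322 CPM at 8 h. Replicate 3 had the lowest macrophage sum at 4 h and 8 h in both ventricles, and the highest level of most sensors. The genes of this sum disagreed. In RV at 8 h replicate 3 was above replicate 2 for Cd68, C1qa and C1qb, and below it for Adgre1, Csf1r and Mrc1. The sum of 5 neutrophil markers rose from 1.01 to 2.55 CPM at 0 h to 9.73 to 16.4 CPM at 8 h over both ventricles, with Csf3r alone at 6.78 to 14.2 CPM at 8 h, and the defining marker Ly6g was at 0 in all libraries but 1. Replicate 3 at 4 h had the highest sums of T and NK cell markers, 2.8 CPM in LV and 3.71 CPM in RV, of which Cd3d was 2.61 and 3.43 CPM, while the other libraries held at most 1.52 CPM. Marker sums of B cells (at most 1.54 CPM) and plasmacytoid dendritic cells (at most 0.593 CPM), the latter known for interferon production, stayed near 0.

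The transcripts behind the gene sums were also inspected. Tmem173 has a single transcript in the files. The main protein-coding transcript of Eif2ak2 made up 82.1 to 94.3% of the gene's TPM in RV at 0 h and 82.7 to 85.5% at 8 h. That of Ddx58 made up 34.6 to 46.3% in RV at 0 h and 43.8 to 52% at 8 h, and the ranges overlapped. Some other shares separated. Ifih1-201, a protein-coding transcript of Ifih1, made up 39.9 to 47.7% in RV at 0 h and 25.5 to 29.8% at 8 h. In LV its share was 24.2 to 47.8% at 0 h and 28.2 to 37.4% at 8 h, with overlap. The shares rest on estimated division of reads between overlapping transcripts, so that the sum over a gene is firmer than any share.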

How the data were processed

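Members and lists were chosen with earlier results of these data known. The authors deposited, for each library, an estimated count (expected count) per transcript from kallisto 0.43.0 on GRCm38 transcripts, not normalized between libraries, and beside them TPM scaled within the library. Both were summed to genes with GENCODE M21 (110203 of 111462 transcripts matched), and the counts were rounded. Depth was 22552581 to 46236771 estimated counts. Genes were filtered with filterByExpr, scaled by TMM and tested with the edgeR 4.0.16 quasi-likelihood test in R 4.3.3, using the 9 libraries of a ventricle for storage times and all 18 for LV against RV, after tests on simulated data. CPM levels come from the model of 18 libraries, and log2 fold changes carry their standard error (SE). DESeq2 1.42.0, RLE factors, no filter, length offsets, a replicate block, a stricter threshold and leaving out libraries were alternatives, as were leaving out mitochondrial genes and replicate 3 at 4 h and 8 h, both added after seeing the data. Named genes of the other lists were up to 3 of the largest called increases and up to 2 decreases at 8 h for each list and ventricle, and for each member the 2 most correlated genes.

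The labels give replicate numbers but do not say that a number names a heart, so p-values measure the spread between these libraries. Deviations from group means of same-numbered LV and RV libraries correlated in 9 of 9 pairs (mean r = 0.535, 0.325 to 0.697), and those of same-numbered RV libraries of other storage times in 9 of 9 (0.11 to 0.49, r over 0.1 in each), so blocked values are given for these. In LV across storage times, 5 of 9 exceeded 0.1. Promoters came from RefSeq (GRCm38.p6). The motifs were searched on both strands. The plots and sums were made with Python 3.11.15, pandas 2.3.3, numpy 2.4.6 and matplotlib 3.10.9.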

Additional observations from a re-analysis of the deposited data

Results flagged for a closer look

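For 5 genes the change from 0 h to 8 h differed between LV and RV in the test of the difference itself, with same-numbered LV and RV libraries as a block (edgeR). As LV minus RV on the log2 scale, the difference was -0.68 for Ddx58 (adjusted p = 0.00679), -0.75 for Ifih1 (adjusted p = 0.0037), -0.90 for Tmem173 (adjusted p = 0.0405), -0.90 for Zbp1 (adjusted p = 0.0629) and -0.67 for Eif2ak2 (adjusted p = 0.0879). The rise was smaller in LV in each case, and 4.72% of all genes were called in that direction with the block. Leaving out both same-numbered libraries of a storage time lowered the count of 5 in some cases. Without the block the same differences were -0.67, -0.68, -0.97, -0.84 and -0.79, and the adjusted p was 1 for each.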

How the results depend on the processing

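RLE size factors, transcript length offsets and leaving out mitochondrial genes kept all 15 counts within 1.5 times. Among 216 log2 changes of members against 0 h under settings that keep all libraries, 0 reversed. Calls at 4 h in LV moved from 1 to 3 with DESeq2, 2 without a filter, 3 with the replicate block and 6 without replicate 3 at 4 h and 8 h, and at 8 h from 6 to 2 at an adjusted p under 0.05. Of all genes, 2.79% were called in LV at 4 h, 4.55% with the block and 5.32% without replicate 3 at both times. DESeq2 called 912 genes in LV at 4 h, against 407 by edgeR. In RV at 4 h the calls of members moved from 3 to 6 with DESeq2, 6 without a filter and 7 with the block or without replicate 3 at both times, and at 8 h against 4 h from 0 to 1 with DESeq2. Of all genes, 10.1% were called in RV at 4 h, 13.9% with the block and 13% without replicate 3 at both times. DESeq2 called 1961 genes in RV at 4 h, against 1474 by edgeR. Between ventricles at 8 h the block gave 2 in place of 0, and 5 in place of 0 for the difference of the changes. The block also raised the shares of all genes called in these 2 comparisons, from 0.0331% to 8.78% and from 0% to 5.71%. In LV, 5 of 9 same-numbered pairs across storage times had an r over 0.1 (mean r = 0.209). The block there changed no count at 8 h against 4 h and gave 8 at 8 h against 0 h. At 8 h against 0 h in LV it raised the share of all genes called from 6.72% to 10.6%. Leaving out single libraries gave 0 to 5 (LV 4 h), 1 to 8 (LV 8 h), 1 to 8 (RV 4 h), 3 to 9 (RV 8 h), 0 to 2 (LV against RV at 8 h) and 0 to 5 (difference of the changes), the last ranges counting both same-numbered libraries left out with the block. Pathway genes called were 4 (LV 4 h; DESeq2 12, block 9, adjusted p under 0.05 1, without replicate 3 at both times 11, single libraries 0 to 11), 15 (LV 8 h; adjusted p under 0.05 5, single libraries 0 to 24), 21 (RV 4 h; adjusted p under 0.05 12, single libraries 2 to 29) and 33 (RV 8 h; single libraries 19 to 45).

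Direction was lost only where libraries were left out. Most reversals came without RV 8 h replicate 3 (20 log2 changes) and without LV 8 h replicate 3 (7). Any other single library left out reversed at most 3, and the cause was not tested. With single libraries, or for the ventricle comparisons also both same-numbered libraries, left out, log2 changes from 4 h to 8 h in LV ranged over -0.58 to 1.77 (Ddx58), -0.60 to 1.69 (Ifih1), -0.52 to 2.85 (Dhx58), -0.31 to 0.07 (Mavs), -1.04 to 3.08 (Zbp1), -0.24 to 0.66 (Tbk1) and -0.43 to 2.26 (Eif2ak2). In RV they ranged over -0.25 to 2.20 (Ddx58), -0.13 to 1.94 (Ifih1), -0.28 to 3.11 (Dhx58), -0.62 to 3.37 (Zbp1), -0.16 to 0.81 (Tbk1) and -0.31 to 2.83 (Eif2ak2). Mavs in RV at 4 h against 0 h ranged over -0.23 to 0.05, and was 0.05 without replicate 3 at both times. LV against RV at 8 h, where leaving out a single library breaks a pair, ranged over -1.73 to 0.64 (Ddx58), -1.82 to 0.52 (Ifih1), -1.90 to 1.18 (Dhx58), -0.06 to 0.65 (Mavs), -2.61 to 1.68 (Zbp1), -0.96 to 0.15 (Tbk1) and -1.87 to 0.86 (Eif2ak2). The difference of the 8 h changes ranged over -1.87 to 0.50, -1.94 to 0.40, -1.71 to 1.37, -0.15 to 0.56, -3.05 to 1.24, -0.96 to 0.15 and -2.10 to 0.63 for the same genes. Low estimated counts at 0 h (19 to 49 for Zbp1 and 53 to 92 for Dhx58) and in Ifnb1 limit precision, and so does the spread between libraries, also for Zbp1, whose SE at 8 h fell from 1.33 to 0.32 in LV without replicate 3 at both times. DESeq2 gave no adjusted p for Zbp1 in any comparison, for Dhx58 in LV and for Ikbke in LV at 8 h against 4 h.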
